A study of Oryza sativa with 40 samples.

Results

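The genes described here encode the proteins with which the thylakoid membrane gathers light and moves electrons. They are the genes of the deposited table whose product name contains chlorophyll A-B binding, photosystem I (which also takes in photosystem II), oxygen evolving or plastocyanin. 1 further matching locus is not analysed here. The rule reads names and no measured value, and it finds 95 of 19308 genes. By product name, 16 are chlorophyll A-B binding proteins, 7 are photosystem I subunits, 9 are photosystem II subunits, 5 are oxygen evolving enhancer proteins and 1 is plastocyanin. These 38 are called nuclear-type thylakoid genes below. A further 41 carry the names of photosystem proteins that the chloroplast genome of plants encodes, although the table places them on nuclear chromosomes, and they are called chloroplast-type genes. The last 16 are proteins with a plastocyanin-like domain, a copper-protein fold that also occurs outside chloroplasts, so the name light harvesting does not describe them.

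The study sequenced total RNA, depleted of ribosomal RNA, from leaves of the rice (Oryza sativa) cultivar IR64, in 40 libraries that fall into 10 groups of 4. All seed had been kept near 40 °C before it germinated, and all plants then grew in hydroponic tanks in a glasshouse at 30 °C by day and 25 °C by night, called warm. Tanks were shifted to 40 °C by day and 35 °C by night (hot) or to 25 °C and 20 °C (cold), while others stayed warm. Warm leaves were taken 0, 2, 6 and 24 h after the shift, and hot leaves and cold leaves at the last 3 of these hours. Each library comes from the middle of leaves that had finished expanding when the shift came, so leaves that grew at the new temperature are not part of the data. The shift came 3 h into the day and every harvest fell in daylight, which puts the 24 h leaves at the same clock hour as the 0 h leaves and the 6 h leaves late in the day. No label ties a library to its tank, so p-values measure the spread between these libraries, which may be technical in part.

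In the thylakoid membrane, chlorophyll A-B binding proteins hold pigment and pass absorbed light energy to the 2 photosystems. Photosystem II splits water at a manganese cluster that the oxygen evolving enhancer proteins shield on the lumen side. Its electrons pass through the cytochrome b6f complex to plastocyanin, a small copper protein of the lumen, and from there to photosystem I, which reduces ferredoxin. The core proteins that bind the reaction centre pigments are encoded in the chloroplast, as are some small subunits. The antenna and other small subunits are encoded in the nucleus. Transcripts of the nuclear genes are known to follow light and the circadian clock in leaves.

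Values are read counts scaled to a library size (CPM, counts per 1e6 of that size), taken from the deposited log2 values. Changes are log2 differences of group means with the standard error (SE) of a limma fit (n = 4 libraries per group). That size is not the total of gene-assigned reads. In warm 0 h replicate 4, with 5730994 reads, 3 reads stand for 0.688 CPM. In warm 6 h replicate 1, with 5716953 reads, they stand for 0.432 CPM. The size of a change thus depends on this scaling, whereas read shares below are of assigned reads and do not carry it. A gene is said to have passed when its p, adjusted by Benjamini-Hochberg across the 19308 genes, was under 0.05. Whether the libraries of 2 groups overlap is given for single genes as a description. The share of all genes without overlap is not given here, so a lack of overlap adds nothing to the test. Libraries held 1830817 to 9628451 assigned reads. All 7 photosystem I genes, 14 of the 16 chlorophyll A-B binding genes and 8 of the 9 photosystem II genes had more than 3 reads in every library. Warm 0 h replicate 1 correlated with its group mates at a mean r of 0.860 and hot 24 h replicate 1 at 0.894, against 0.905 to 0.970 for the other 38 libraries. By the lane in the library names, lanes 1 and 2 held the warm libraries, lanes 2 and 3 the hot ones and lanes 3 and 4 the cold ones. Warm and cold libraries thus share no lane, and their difference cannot be told apart from the lane. The pooled standard deviation between libraries of one group had a median of 0.53 (log2) over the 33 nuclear-type genes with a mean log2 value of at least 5, against 0.28 over all 4993 genes at that level. In leaf tissue of many cells, fewer cells of a type and less RNA per cell cannot be told apart.

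Over the warm day, most nuclear-type thylakoid genes were lowest at 6 h. Of the 38, 24 passed the moderated F test over the 4 warm hours, 21 of them lower and 3 higher at 6 h than at 0 h. The background was 44.7% of all genes, 3960 of them lower and 4666 higher at 6 h. By role these were 8 of 9 photosystem II genes, 4 of 5 oxygen evolving genes, 9 of 16 chlorophyll A-B binding genes, 3 of 7 photosystem I genes and 0 of 1 for plastocyanin. The 95 genes together gave 41, or 43.2%, which is close to the background. The median change from 0 to 6 h was -1.11 over the 38 nuclear-type genes and 0.08 over all genes. The 38 took 5.59 to 8.79% of assigned reads at 0 h and 4.23 to 5.93% at 6 h, ranges that overlap. In 30 of the 38 the warm 6 h mean was the lowest of the 4 warm means, and the median at 24 h was back to -0.35. The share of all genes lowest at 6 h is not given here. Of the 38, 33 were lower at 6 h than at 0 h, passed or not, beside 8988 of all 19308 genes. The count of 41 was 40 with lane as a term, and 41 without the pair of libraries that stand apart, of which 36 were shared.

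**Figure D1:**
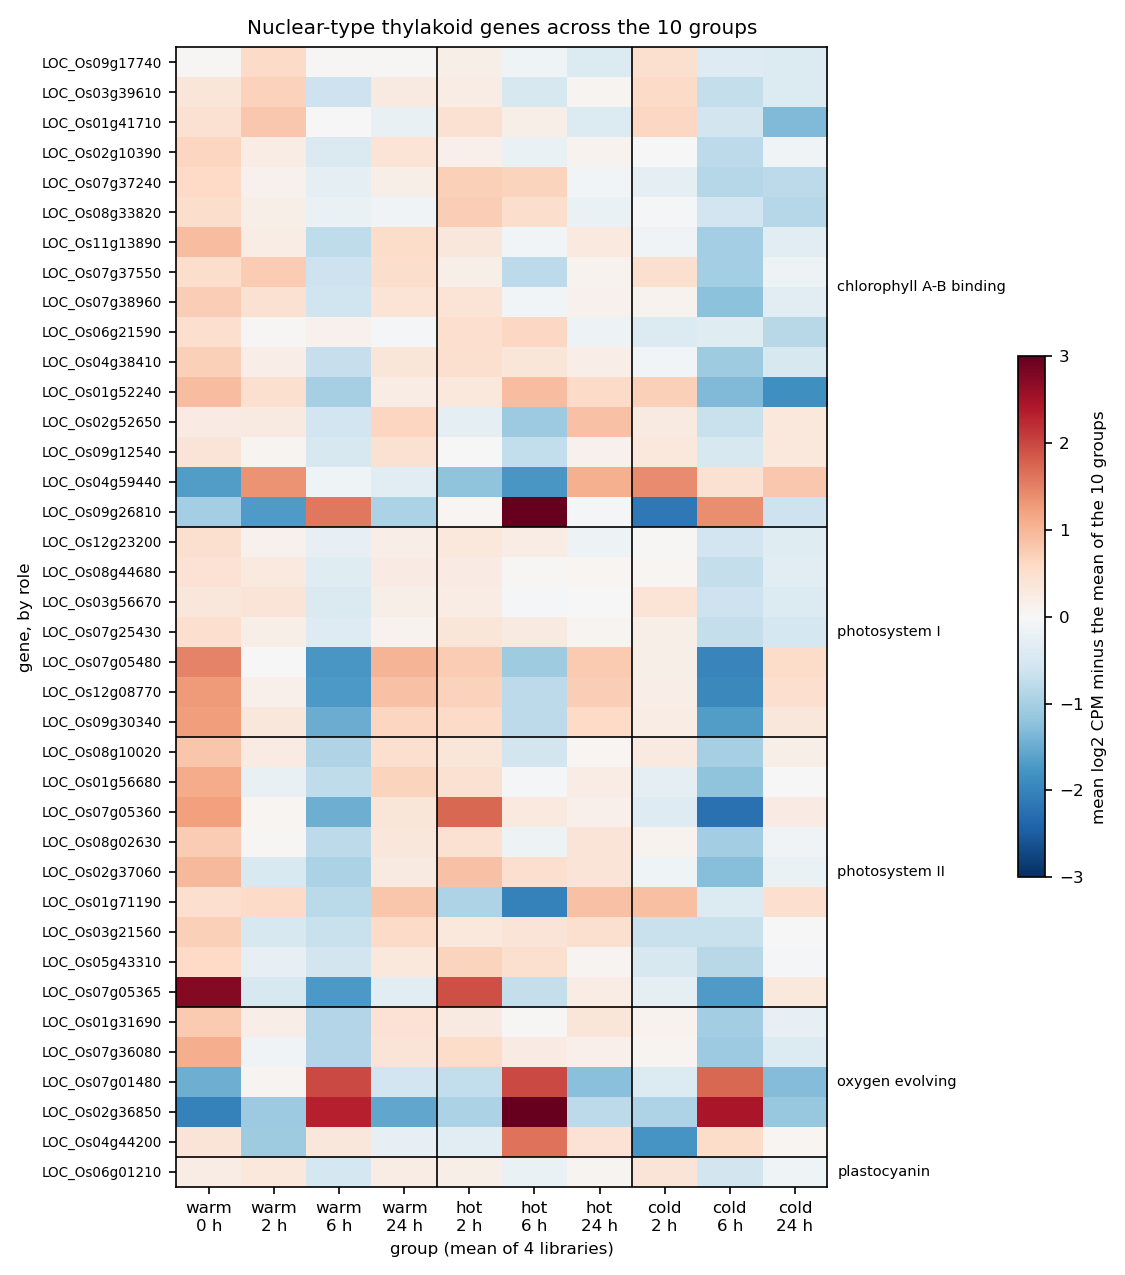
Mean log2 CPM of each of the 38 nuclear-type thylakoid genes (rows, by role) in the 10 groups (columns), minus the gene's mean over the groups. Blue cells at 6 h in warm and cold leaves mark the low point of most genes, LOC_Os02g36850, LOC_Os07g01480 and LOC_Os09g26810 lie farthest above their own mean at 6 h at each temperature, and the hot 6 h column is paler than the warm and cold ones for most genes.

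In photosystem I, 3 of 7 genes passed, all lower at 6 h. That is 42.9%, near the 44.7% of all genes that passed the same test. The gene for subunit N (LOC_Os12g08770, chromosome 12, 4506723 to 4507879), which sits on the lumen side near the plastocyanin docking site, read 1177, 2025, 1676 and 2578 CPM at 0 h and 199, 295, 250.2 and 174 CPM at 6 h. All 4 libraries at 6 h lay below all 4 at 0 h, and the 24 h libraries were back at 1201, 1251, 1549 and 1481 CPM. Its change from 0 to 6 h was -2.99 ± 0.31 (SE, n = 4), a level 7.96 times lower (F test adjusted p = 1.95e-09). A gene annotated as a photosystem I reaction center subunit without a letter (LOC_Os07g05480, chromosome 7, 2546427 to 2547414) went from 1618, 2347, 1964 and 2997 CPM to 155, 402, 317 and 142 CPM, a change of -3.24 ± 0.40 (adjusted p = 1.09e-07). A gene with the same product name (LOC_Os09g30340, chromosome 9, 18469702 to 18471297) changed by -2.75 ± 0.34 (adjusted p = 1.92e-07). The other 4 photosystem I genes did not pass. They are those of subunit II (LOC_Os08g44680), known for docking ferredoxin, subunit III (LOC_Os03g56670), which binds plastocyanin, subunit IV A (LOC_Os07g25430) and subunit XI (LOC_Os12g23200), and their changes at 6 h were -0.80, -0.76, -0.90 and -0.73. The subunits of this complex therefore spread from -3.24 to -0.73 at the same hour.

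In photosystem II, 8 of 9 genes passed, beside 44.7% of all genes, and all 8 were lower at 6 h. The 10 kDa polypeptide gene LOC_Os08g10020 (chromosome 8, 5806459 to 5808458), for a lumenal protein tied to the oxygen evolving complex, went from a geometric mean of 8309.8 CPM at 0 h to 2478 CPM at 6 h, a change of -1.75 ± 0.33 (adjusted p = 0.000263). The 2 genes for reaction center W, a small membrane subunit of photosystem II, changed by -1.88 ± 0.42 (LOC_Os01g56680) and -1.14 ± 0.30 (LOC_Os05g43310). The gene for the 5 kDa protein (LOC_Os02g37060) changed by -1.91 ± 0.50, that for the core complex protein psbY (LOC_Os08g02630) by -1.55 ± 0.34, and that for the 11 kD protein (LOC_Os03g21560) by -1.39 ± 0.44. The PSB28 gene (LOC_Os01g71190), whose protein takes part in photosystem II assembly, showed a difference of 0.06 from 0 to 2 h and changed by -1.32 ± 0.45 from 0 to 6 h. The eighth gene that passed, LOC_Os07g05365, annotated as a 10 kDa polypeptide, changed by -4.47 ± 1.05 and varied widely between libraries. Of the oxygen evolving genes 2 were also lower at 6 h: the enhancer protein 1 gene LOC_Os01g31690 (chromosome 1, 17349311 to 17350816), which stabilises the manganese cluster, by -1.68 ± 0.30 (adjusted p = 9.89e-05), and the enhancer protein 3 domain gene LOC_Os07g36080 by -1.95 ± 0.37 (adjusted p = 0.000484).

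The 16 chlorophyll A-B binding genes are called antenna genes by product name alone, which does not show that each protein is an antenna. Of these 16, 9 passed the F test (56.3%, beside 44.7% of all genes). Of the 9, 8 were lower at 6 h than at 0 h, with changes from -1.67 (LOC_Os11g13890) to -0.82 (LOC_Os02g52650). LOC_Os02g52650 was at 0.40 at 24 h, so its call need not rest on the fall at 6 h. The smallest p among these 8 belonged to LOC_Os09g12540 (chromosome 9, 7185218 to 7188146) at -0.87 ± 0.19 (adjusted p = 0.000385). The antenna gene with the most reads, LOC_Os09g17740 (chromosome 9, 10845678 to 10847156), did not pass: its geometric mean was 7456 CPM at 0 h and 7517 CPM at 6 h. The next ones in reads were LOC_Os03g39610, which passed at -0.98 ± 0.35, and LOC_Os01g41710, which did not at -0.48 ± 0.37. LOC_Os04g59440 was higher than at 0 h, by 3.02 ± 0.95 at 2 h and 1.56 ± 0.95 at 6 h, and did not pass (F test adjusted p = 0.063). Plastocyanin (LOC_Os06g01210, chromosome 6, 149384 to 150246) was at -0.76 ± 0.38 and did not pass (adjusted p = 0.178).

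A set of 3 nuclear-type genes ran the other way and peaked at 6 h. The gene LOC_Os02g36850 (chromosome 2, 22234374 to 22235445), annotated as oxygen evolving enhancer protein 3, was near the floor at 0 h with 0.583, 1.90, 0.577 and 0.573 CPM, where 3 reads stand for 0.599 to 0.700 CPM. It reached 8.70, 27, 25.4 and 11.3 CPM at 6 h and was back at 0.791, 0.876, 1.03 and 1.91 CPM at 24 h. All 4 libraries at 6 h lay above every other warm library, and the change was 4.37 ± 0.47 (adjusted p = 2.2e-09). Because its 0 h values lie near 3 reads, the size of that change depends on the offset of 0.5 reads in the deposited values. A further gene with an enhancer protein 3 domain, LOC_Os07g01480 (chromosome 7, 306009 to 307555), went from 4.78, 11.1, 13.3 and 9.98 CPM at 0 h to 66.7, 128, 147 and 77 CPM at 6 h, 10.8 times higher (3.44 ± 0.40, adjusted p = 8.64e-08). The chlorophyll A-B binding gene LOC_Os09g26810 (chromosome 9, 16287916 to 16290862) went from 1.52, 4.69, 1.73 and 1.49 CPM to 5.25, 24.6, 21.1 and 9.23 CPM (2.61 ± 0.60, adjusted p = 0.00013). Of the 4 genes named after enhancer protein 3, then, LOC_Os07g36080 fell, LOC_Os02g36850 and LOC_Os07g01480 rose, and LOC_Os04g44200 did not pass, at -0.06. The 10 genes with the smallest F test p passed in all 26 alternatives run, 9 of which are named above. The other is the chloroplast-type gene LOC_Os01g58049.

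**Figure D2:**
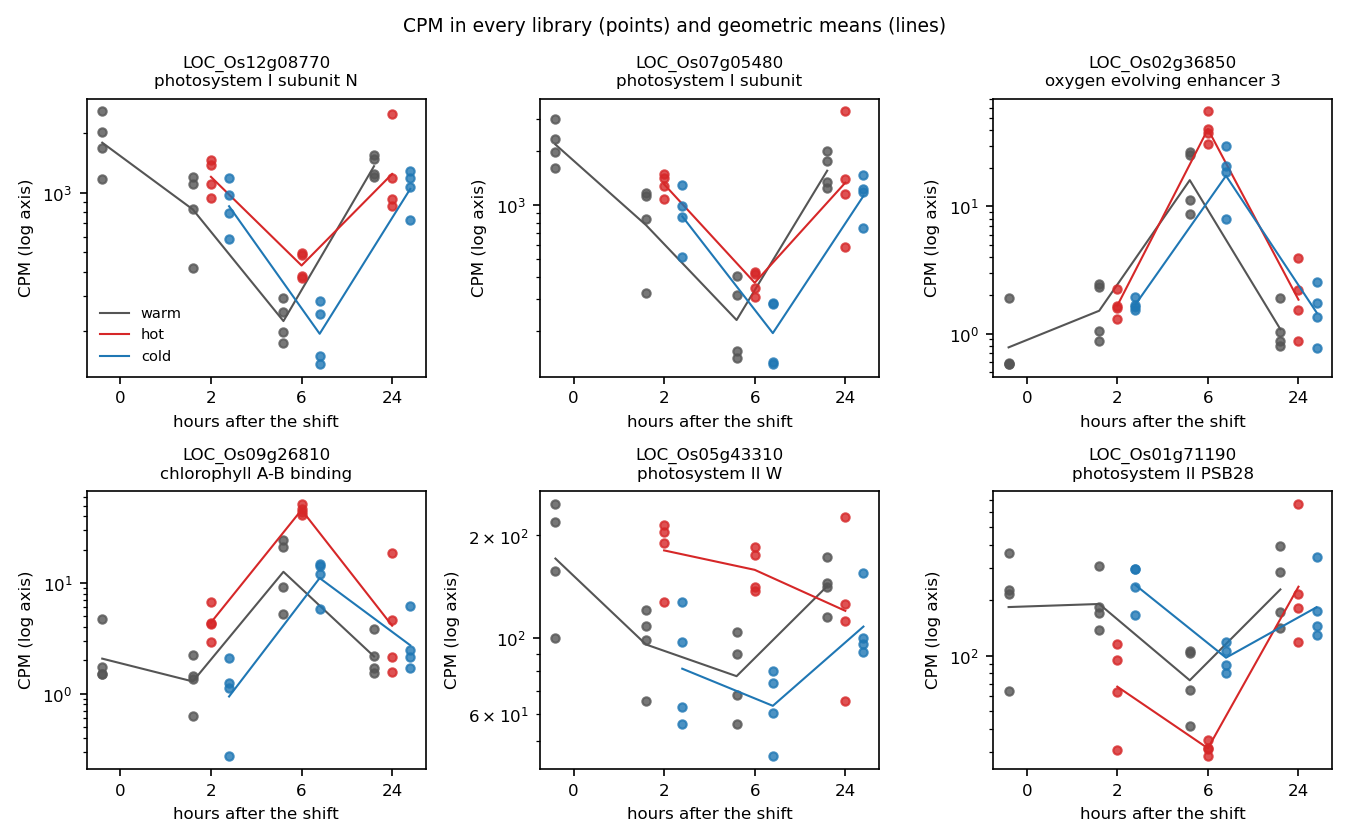
CPM on a log axis in every library (points) against hours after the shift for 6 genes in warm, hot and cold leaves, with lines through geometric means of 4 libraries. Photosystem I genes LOC_Os12g08770 and LOC_Os07g05480 dip at 6 h at each temperature, LOC_Os02g36850 and LOC_Os09g26810 peak there, and LOC_Os05g43310 lies higher and LOC_Os01g71190 lower in hot leaves at 2 and 6 h.

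Whether heat changes these genes was asked by setting hot leaves against warm leaves of the same hour. After 2 h, 0 of the 95 genes had passed as higher and 1 as lower, against 3.63% and 4.58% of all genes (8.20% in either direction). At an unadjusted p under 0.05, limma gave 5 higher and 6 lower, which is 11.6% of the 95 against 23.6% of all genes. The single call was the PSB28 gene, which read 184, 137, 171 and 304 CPM in warm leaves and 95.1, 115, 63.1 and 30.6 CPM in hot leaves. The groups did not overlap, and the change was -1.49 ± 0.45 (adjusted p = 0.0362). Within lane 2, the lane both temperatures share, the difference was -1.54 from 2 hot libraries and 1 warm one. The gene did not pass with a lane term, nor without any of warm 2 h replicates 1, 3 and 4 or hot 2 h replicates 3 and 4. The count became 2 without warm 2 h replicate 2 and 5 without the pair of libraries that stand apart. The total over all genes, 1584 in the main fit, was 1365 and 2705 under these settings.

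Other photosystem II genes lay higher in the hot leaves at 2 h without passing. The reaction center W gene LOC_Os05g43310 read 215, 205, 189.6 and 128 CPM in hot leaves and 65.3, 108, 98.7 and 121 CPM in warm ones, with no overlap, and missed narrowly at 0.92 ± 0.30 (adjusted p = 0.0501). The 5 kDa protein gene LOC_Os02g37060 was at 1.33 ± 0.50 (adjusted p = 0.0958). The antenna gene LOC_Os09g26810 was at 1.77 ± 0.60 (adjusted p = 0.0617), also without overlap. Over the 9 photosystem II genes the median change was 0.78 with 8 above 0, over the 16 antenna genes -0.08 with 6 above 0, and over all genes 0.01. Among antenna genes, LOC_Os04g59440 (chromosome 4, 35337067 to 35338192) had the most negative value, -2.56 ± 0.95 (adjusted p = 0.0908), from 144, 90.7, 89.1 and 151 CPM in warm leaves to 31.3, 43.7, 15 and 7.13 CPM in hot ones. Photosystem I genes lay between -0.17 (LOC_Os03g56670) and 0.75 (LOC_Os07g05480), and plastocyanin was at -0.14 ± 0.38.

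At 6 h, 3 genes had passed as higher in hot leaves and 0 as lower, against 2.39% and 4.51% of all genes (6.90% in either direction). Those 3 are 3.16% of the 95, a share near the background. At an unadjusted p under 0.05, 15 were higher and 1 lower, or 16.8% of the 95, where 20.1% of all genes passed, 1487 higher and 2401 lower. The oxygen evolving enhancer protein 1 gene LOC_Os01g31690 read 3761, 4891, 3979.7 and 4793 CPM in hot leaves and 1728, 3288, 2886 and 1627 CPM in warm leaves. Every hot library lay above every warm one, and the change was 0.93 ± 0.30 (adjusted p = 0.0498). The reaction center W gene LOC_Os05g43310 (chromosome 5, 25193458 to 25194714) read 141, 185, 138 and 176 CPM against 68.1, 104, 90.2 and 56.2 CPM, again without overlap, at 1.03 ± 0.30 (adjusted p = 0.0285). The third is the chloroplast-type gene LOC_Os08g17980 (chromosome 8, 11022070 to 11022681), named after the P680 apoprotein of photosystem II, at 1.16 ± 0.36 (adjusted p = 0.0416). It read 9.53, 12.2, 6.75 and 4.77 CPM in hot and 2.95, 2.22, 3.13 and 7.27 CPM in warm leaves, so its groups overlap.

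These 3 calls moved with the lane term and with single libraries. Within lane 2, from 1 hot and 2 warm libraries, the differences were 0.80, 0.99 and 1.00, yet with lane as a term 0 of the 3 passed and 1 other gene did. Leaving out replicate 1 of the warm group or replicate 2 of the hot group gave 0, and leaving out warm replicate 3 or 4 or hot replicate 1, 3 or 4 gave 1. It was 5 without warm replicate 2, and 11, the 3 among them, without the pair of libraries that stand apart. Under these settings 1086 and 2110 of all genes passed, from 1333 in the main fit.

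Most of the 38 values lay above 0 in hot against warm leaves at 6 h, although few passed. Of the nuclear-type genes, 32 had a change above 0, with a median of 0.66 against -0.04 over all genes. By role the median was 1.12 over 5 oxygen evolving genes, 1.00 over 9 photosystem II genes, 0.66 over 7 photosystem I genes and 0.37 over 16 antenna genes. The 5 kDa protein gene LOC_Os02g37060 read 283, 348, 357 and 365 CPM in hot leaves and 78.2, 239, 153 and 78.2 CPM in warm leaves, a change of 1.46 ± 0.50 (adjusted p = 0.0732). The subunit N gene LOC_Os12g08770 was at 0.93 ± 0.31 (adjusted p = 0.0618), and the enhancer protein 3 domain gene LOC_Os07g36080 at 1.12 ± 0.37 (adjusted p = 0.0627). None of these genes passed, and the lack of overlap between their groups has no share of all genes beside it. The antenna gene LOC_Os09g26810 read 41.1, 46.8, 52 and 43.5 CPM in hot leaves, all above the warm libraries, at 1.86 ± 0.60 (adjusted p = 0.0533). LOC_Os02g36850, which peaks at this hour, was at 1.33 ± 0.47 (adjusted p = 0.0784), whereas LOC_Os07g01480, which peaks with it, was at 0.01 ± 0.40. The 6 genes below 0 were PSB28 at -1.23 ± 0.45 (adjusted p = 0.0985), LOC_Os04g59440 at -1.62 ± 0.95 and 4 more antenna genes. The largest antenna value, 1.92 ± 0.95 for LOC_Os01g52240, came with groups that overlap.

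As a share of all assigned reads, the 38 nuclear-type genes took 6.08 to 7.69% in the hot libraries at 6 h, 4.23 to 5.93% in the warm ones and 3.29 to 5.01% in the cold ones. The hot libraries thus lay above all warm and cold libraries of that hour. Photosystem II genes took 0.549 to 0.709% of reads in hot leaves and 0.364 to 0.503% in warm ones, and oxygen evolving genes 0.589 to 0.721% and 0.268 to 0.481%. Antenna genes took 4.03 to 5.23% and 3.04 to 4.16%, which overlap. The 4 mesophyll markers (3 Rubisco small chain genes and the AAA-type ATPase LOC_Os11g47970) summed to 21706 to 27576 CPM in hot leaves at 6 h and 7433 to 42834 CPM in warm leaves, so that list did not separate the groups. The 41 dividing cell markers summed to 863 to 935 CPM in hot and 872 to 1557 CPM in warm leaves. Of the 41, 4 passed as lower and 0 as higher, against 4.51% and 2.39% of all genes. Their part in the result was not tested. The 3 cellulose synthase genes of secondary walls were near 0, at 0.487 to 14.6 CPM in sum in hot leaves and 1.37 to 14.5 CPM in warm ones. The 1 guard cell gene, LOC_Os04g48530, annotated as a malic acid transport protein, was at 9.83 to 13.1 CPM in hot and 11.5 to 17.9 CPM in warm leaves.

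**Figure D3:**
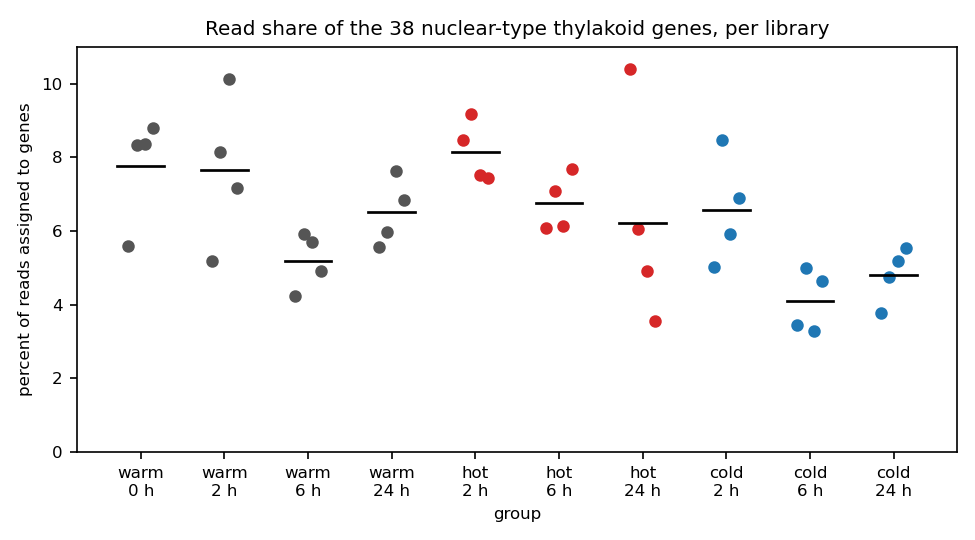
Share of all gene-assigned reads taken by the 38 nuclear-type thylakoid genes (percent, y axis) in each library (points) of the 10 groups, with the group mean as a line. The hot 6 h libraries lie between 6.08 and 7.69%, above all warm and cold 6 h libraries, and the hot 24 h libraries spread from 3.56 to 10.4%.

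Hot leaves were set against cold leaves of the same hour as the direct test of whether the 2 shifts differ, since both comparisons against warm use the same warm libraries. At 2 h, 2 genes had passed as higher in hot leaves and 2 as lower, against 6.73% and 8.32% of all genes (15.1% in either direction). The reaction center W gene LOC_Os05g43310 was higher, at 215, 205, 189.6 and 128 CPM in hot and 56.2, 127, 63 and 97.3 CPM in cold leaves (1.15 ± 0.30, adjusted p = 0.00777). The antenna gene LOC_Os09g26810 was higher at 2.22 ± 0.60 (adjusted p = 0.0105), with 4.27, 2.94, 4.38 and 6.73 CPM in hot leaves and 0.271, 2.08, 1.25 and 1.12 CPM in cold ones, a call lost with voom weights and without cold 2 h replicate 1. PSB28 was lower, at 95.1, 115, 63.1 and 30.6 CPM in hot and 295, 236, 294 and 165 CPM in cold leaves (-1.83 ± 0.45, adjusted p = 0.00528). None of these 3 genes overlapped between the groups. The last call is a plastocyanin-like domain gene, LOC_Os02g48820, at -1.75 ± 0.54 (adjusted p = 0.0227), from 0.445 to 1.56 CPM in hot and 1.53 to 4.89 CPM in cold leaves, which overlap and lie near the floor of 3 reads. Within lane 3, the lane hot and cold share, the differences from 2 hot libraries and 1 cold one were 1.47, 4.33, -2.75 and -1.37 in the same order. LOC_Os02g48820 did not pass with a lane term, nor without hot 2 h replicate 2 or 3 or cold 2 h replicate 3. The count was 5 with a lane term, 3 of the 4 among them, and 7, all 4 among them, without the pair of libraries that stand apart. All genes together gave 1767 and 4123 calls under these settings, from 2907 in the main fit.

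By 6 h, 10 genes had passed as higher in hot than in cold leaves and 1 as lower, against 3.17% and 5.11% of all genes (8.28% in either direction). The 10 are 10.5% of the 95. At an unadjusted p under 0.05 there were 30 and 2, or 33.7% of the 95, where 21.3% of all genes passed, 1688 higher and 2422 lower. By role the 10 are 4 antenna genes, 2 photosystem II genes, 2 oxygen evolving genes, 1 photosystem I gene and 1 chloroplast-type gene, while PSB28 was the one lower. The reaction center W gene LOC_Os05g43310 had the smallest p, with 141, 185, 138 and 176 CPM in hot and 45, 80.3, 60.4 and 73.9 CPM in cold leaves (1.32 ± 0.30, adjusted p = 0.0038), a level 2.50 times higher. PSB28 read 28.4, 31, 31.7 and 35 CPM in hot and 89.2, 106, 80.5 and 118 CPM in cold leaves (-1.63 ± 0.45, adjusted p = 0.0187). The 5 kDa protein gene LOC_Os02g37060 was at 1.78 ± 0.50 (adjusted p = 0.0215), where the cold libraries read 58.1, 154, 79.9 and 127 CPM. In each of these 3 genes all hot libraries lay on one side of all cold libraries.

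On the lumen side, the enhancer protein 1 gene LOC_Os01g31690 read 1701, 2729, 1521 and 2488 CPM in cold leaves, all below the hot libraries (1.08 ± 0.30, adjusted p = 0.0177). LOC_Os07g36080, with the enhancer protein 3 domain, read 1024, 1484, 1262 and 1534 CPM in hot and 326, 796, 401 and 686 CPM in cold leaves (1.34 ± 0.37, adjusted p = 0.0197). The subunit N gene of photosystem I read 382, 485, 369 and 497 CPM against 151, 244, 136 and 283 CPM (1.15 ± 0.31, adjusted p = 0.0163). Among the antenna genes that passed, LOC_Os07g37240 (chromosome 7, 22316268 to 22317936) read 3643, 4939.8, 4059 and 6147 CPM in hot and 897, 2823, 1228 and 2240.4 CPM in cold leaves (1.5 ± 0.46, adjusted p = 0.0329). LOC_Os04g38410 was at 1.42 ± 0.44, LOC_Os07g38960 at 1.15 ± 0.35 and LOC_Os09g26810 at 2.05 ± 0.60, each without overlap between the groups. Of the 38 nuclear-type genes, 34 lay above 0 with a median of 0.95, against -0.03 over all genes. The antenna gene with the most reads, LOC_Os09g17740, was at 0.26 ± 0.30, with a 95% interval of -0.35 to 0.86.

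Lane 3 holds 3 of the hot 6 h libraries and 1 cold one, and within it the 10 genes that passed as higher differed by 1.41 to 3.03 and PSB28 by -1.46. A lane term gave 14 calls, which include 10 of the 11. Left-out libraries moved the count further: it was 2 without hot 6 h replicate 4 or cold 6 h replicate 1, 3 without hot 6 h replicate 2 or cold 6 h replicate 3, and 7 without hot 6 h replicate 3. It was 22, all 11 among them, without the pair that stands apart. Of all genes, 1599 passed in the main fit, 957 with the lane term and 2384 without the pair. The W gene LOC_Os05g43310 at both hours and PSB28 at 2 h passed in all 18 alternatives run.

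**Figure D4:**
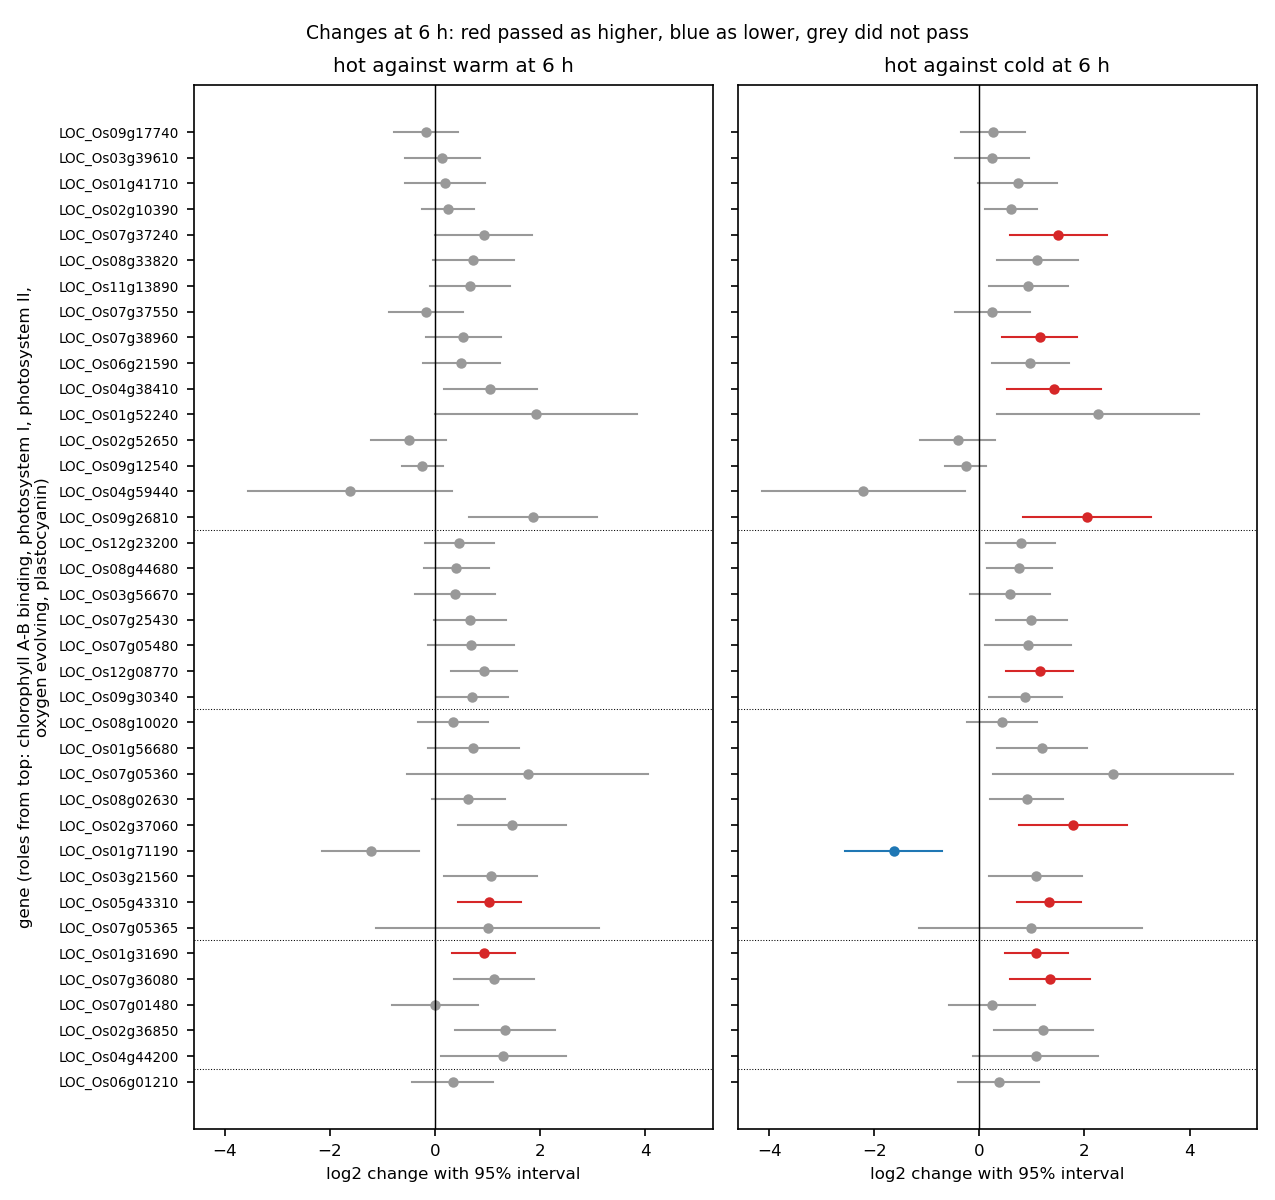
Log2 change with its 95% interval (x axis) at 6 h for the 38 nuclear-type thylakoid genes (y axis, by role), hot minus warm on the left and hot minus cold on the right. Most points lie right of 0 in both panels; on the left 2 genes are red, and on the right 9 are red and PSB28 (LOC_Os01g71190) is blue.

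No difference between cold and warm leaves passed at any hour. With limma, 0 of 19308 genes and 0 of the 95 passed at 2, 6 or 24 h (0% of all genes in each). At an unadjusted p under 0.05 the 95 gave 3 at 2 h and 3 at 6 h (3.16% in each, against 6.48% and 4.50% of all genes) and 13 at 24 h, all 13 lower in cold leaves. Those 13 are 13.7% of the 95, against 7.55% of all genes, of which 860 were higher and 597 lower. Of the 38 nuclear-type genes, 9 were among the 13, namely 7 antenna and 2 oxygen evolving genes, and the median change over the 38 was -0.55 at 24 h, -0.25 at 6 h and -0.11 at 2 h. The antenna gene LOC_Os01g41710 (chromosome 1, 23607348 to 23608583) read 1909, 1229.7, 1953 and 2345 CPM in cold and 3242, 3877, 3909.5 and 4625 CPM in warm leaves at 24 h. Its groups did not overlap, at -1.10 ± 0.37 with a 95% interval of -1.85 to -0.35 (adjusted p = 0.575). LOC_Os01g31690 read 2264, 4069.9, 3752 and 4486 CPM in cold and 4542, 5291, 7224 and 6145 CPM in warm leaves (-0.70 ± 0.30, adjusted p = 0.637). The 7 photosystem I genes were all below 0, from -0.64 to -0.32. The 38 genes took 3.76 to 5.54% of reads in cold and 5.56 to 7.64% in warm leaves, ranges that do not overlap. The 4 mesophyll markers summed to 44689 to 91368 CPM in cold and 69797 to 125017 CPM in warm leaves at 24 h, and their part in the result was not tested. The lanes of warm and cold libraries cannot be told apart from these differences.

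After 24 h of heat, 0 of the 95 and 0 of all genes passed against warm leaves (0%), and 1 was higher and 1 lower at an unadjusted p under 0.05 (2.11% against 6.25% of all genes). The 38 nuclear-type genes had a median of -0.16, with 10 above 0. The W gene LOC_Os05g43310 read 226, 112, 126 and 65.6 CPM in hot and 116, 145, 141 and 173 CPM in warm leaves (-0.24 ± 0.30), and PSB28 666, 182, 215 and 119 CPM and 172, 141, 392 and 285 CPM (0.05 ± 0.45). Both groups overlap, and hot 24 h replicate 1, the library that stands apart, was the highest in both genes. The 38 genes took 10.4% of reads in that library and 3.56 to 6.04% in the other 3. No gene among the 95 passed when the heat change at 6 h was tested against that at 24 h or at 2 h. The same held for the heat change at 2 h against that at 24 h, and the lowest adjusted p was 0.143. Of all 19308 genes, 210, 13 and 161 passed in these tests, in this order. With so few calls over all genes, 0 of 95 says little about these genes. The test does not show that the change faded. Hot against cold at 24 h gave 0 of the 95 and 0 of all genes (0%), with 9 higher and 0 lower at an unadjusted p under 0.05, or 9.47% of the 95 against 7.61% of all genes. Without hot 24 h replicate 2 it gave 2 of the 95 (2.11%) and 423 of all genes (2.19%).

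The 41 chloroplast-type genes carry 11 product names and lie at 14 places on 10 of the 12 nuclear chromosomes. In 7 of these places at least 2 sit together, 34 genes in all, and the longest run holds 9 on chromosome 10 between 10814227 and 10914191. Plant nuclear chromosomes are known to hold inserted pieces of chloroplast DNA, and reads from chloroplast transcripts can align to such near-identical copies. The counts of these loci are therefore uncertain and may not be transcripts of the loci themselves. Together they took 0.312 to 0.386% of reads in warm leaves at 0 h and 0.286 to 0.466% in hot leaves at 6 h. Over the warm hours 8 of 41 passed, or 19.5%, against 44.7% of all genes, and 7 of the 8 were lower at 6 h. They include all 3 loci named after the photosystem I assembly protein ycf4, LOC_Os01g58049 (-1.26 ± 0.23, adjusted p = 9.96e-05), LOC_Os02g24604 (-1.18 ± 0.30) and LOC_Os06g39744 (-1.01 ± 0.34, adjusted p = 0.0489).

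At 6 h, loci of one product lay close together in hot minus cold leaves in some cases, though not always in hot minus warm leaves. All 5 loci of the P700 apoprotein A1 lay between 0.71 and 0.95 in hot minus cold leaves, and all 3 of apoprotein A2 between 0.79 and 1.20. The 3 loci of the 44 kDa protein of photosystem II lay between -0.08 and 0.05, and the 5 of the P680 apoprotein between 0.27 and 0.36. In hot minus warm leaves the apoprotein A1 loci ran from 0.08 to 1.03, those of apoprotein A2 from 0.75 to 0.99, those of the 44 kDa protein from -0.29 to 0.06 and those of the P680 apoprotein from -0.14 to 1.16. Loci of 1 product can share reads, so they are not independent. In hot against cold leaves a single one of the 41 passed, as higher. That is 2.44% higher and 0% lower, beside 3.17% and 5.11% of all genes, so the count does not exceed the background. The gene is LOC_Os10g21250 (chromosome 10, 10846147 to 10848399), named after apoprotein A1. It read 70.8, 154, 92.6 and 183 CPM in hot and 46.5, 78.9, 73.3 and 78.6 CPM in cold leaves (0.78 ± 0.25, adjusted p = 0.0488). Its hot and cold libraries overlap. The 3 loci with the most reads, LOC_Os04g16872, LOC_Os09g04680 and LOC_Os02g24632, were at -0.11 ± 0.30, 0.27 ± 0.31 and -0.08 ± 0.30.

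**Figure D5:**
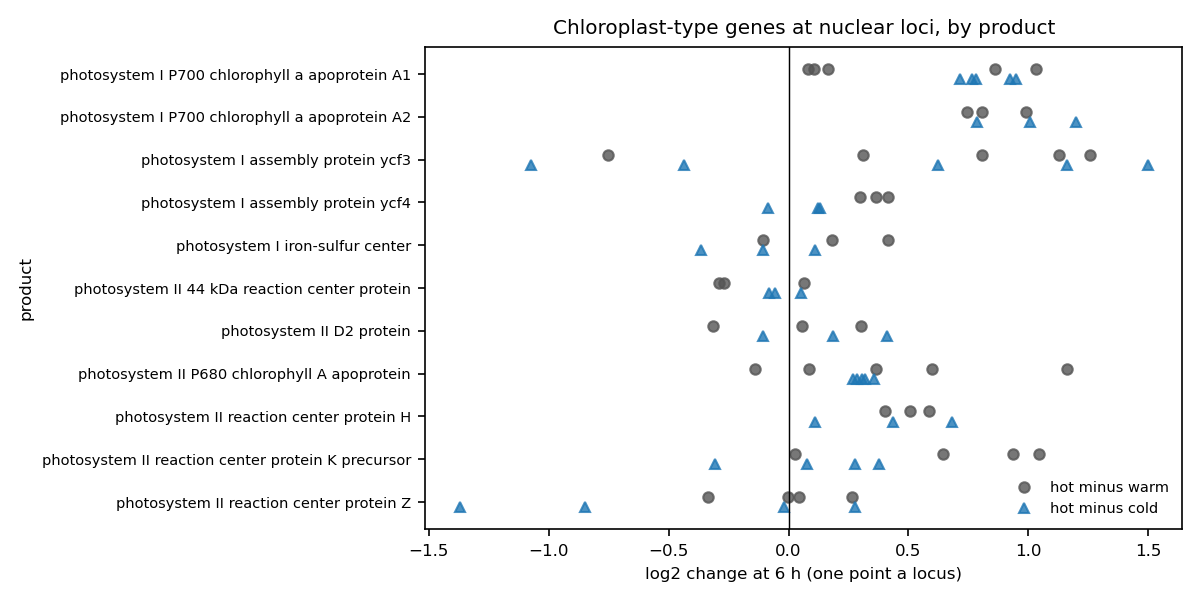
Log2 change at 6 h (x axis) of each of the 41 chloroplast-type loci, grouped by product (y axis), hot minus warm as circles and hot minus cold as triangles. The P700 apoprotein loci lie right of 0 in both, those of the 44 kDa protein lie near 0 in hot minus cold, and the ycf3 loci spread from -1.07 to 1.5 in hot minus cold.

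The 16 plastocyanin-like domain genes were sparse: 5 had more than 3 reads in every library and 5 had 3 or fewer in at least 20 of the 40. Over the warm hours 9 passed, or 56.3% against 44.7% of all genes, 6 lower and 3 higher at 6 h. LOC_Os08g37670, the one with the most reads, changed by -1.49 ± 0.38 (adjusted p = 0.00371) and LOC_Os08g04310 by 1.59 ± 0.41 (adjusted p = 0.00103). At 2 h of heat 13 of 16 were below 0 with a median of -0.68, beside 9498 of all 19308 genes and a median of 0.01. Of the 16, 0 passed, where 8.20% of all genes did. With 16 sparse genes that 0 says little. LOC_Os06g11310 was at -0.91 ± 0.43 in hot and -0.96 ± 0.43 in cold leaves against the same warm libraries, without overlap in either (adjusted p = 0.193 and 0.737).

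Some photosystem genes varied widely between libraries of one group. The 10 kDa polypeptide gene LOC_Os07g05360 (chromosome 7, 2453960 to 2456611) had a pooled within-group standard deviation of 1.70 (log2) and ran from 27.5 to 3999 CPM over the 40 libraries. At 0 h it read 3999, 998, 361 and 168 CPM, and in hot leaves at 2 h 535, 283, 1629 and 3909 CPM. Its neighbour LOC_Os07g05365 (chromosome 7, 2456968 to 2458151), with the same product name, was highest in the same library of both groups, at 129, 8.68, 10.7 and 6.31 CPM and 4.27, 5.25, 12 and 30.2 CPM. The third gene of that name, LOC_Os08g10020, read 6053, 8826, 8189 and 10899 CPM and 7463, 6838, 5101 and 4741 CPM in these groups. In the antenna, LOC_Os04g59440 ran from 0.350 to 54.6 CPM at 0 h and LOC_Os01g52240 from 23.7 to 2949.9 CPM in hot leaves at 24 h. With 4 libraries a group, the 95% interval of the change at 6 h of heat ran from -0.52 to 4.05 for LOC_Os07g05360 and from -0.01 to 3.84 for LOC_Os01g52240.

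Lists of other genes of the electron path and of pigment supply were read beside these. Of 14 cytochrome b6f genes, the complex that feeds plastocyanin, 0 passed in any comparison between temperatures, where at most 15.1% of all genes did. Over the warm hours 2 of the 14 passed, fewer than the 44.7% of all genes. Of the 14, 12 are named after products of the chloroplast genome, the 2 that passed among them, so their counts are uncertain in the same way as those of the chloroplast-type loci. The 3 plastid ATP synthase genes gave 0 and 2 beside the same shares of all genes, and those 2 are loci of the a chain, which is also encoded in the chloroplast. A list of 14 genes with ferredoxin in the product name holds 1 ferredoxin and 4 ferredoxin-NADP reductases, and the rest are other enzymes that use ferredoxin. Over the warm hours 7 of these 14 passed, 6 of them lower at 6 h, where 44.7% of all genes passed. At 6 h of heat 2 were higher and 0 lower, beside 2.39% and 4.51% of all genes. The 2 that were higher at 6 h of heat are ferredoxin-nitrite reductases, enzymes of nitrogen assimilation, LOC_Os02g52730 at 1.85 ± 0.41 (adjusted p = 0.00419) and LOC_Os01g25484 at 1.79 ± 0.40 (adjusted p = 0.0043). Of 17 chlorophyll synthesis genes, 5 were higher at 2 h of heat and 8 at 6 h, with 0 lower, beside 3.63% and 2.39% of all genes that were higher. Against cold leaves 5 were higher at 2 h and 9 at 6 h, beside 6.73% and 3.17% of all genes. The median change at 6 h of heat was 0.88. A uroporphyrinogen decarboxylase gene (LOC_Os03g21900), for a step early in the tetrapyrrole path, changed by 1.42 ± 0.28 at 2 h (adjusted p = 0.00153) and 2.06 ± 0.28 at 6 h (adjusted p = 7.49e-06). A porphobilinogen deaminase gene (LOC_Os02g07230), for an earlier step of the same path, changed by 1.31 ± 0.24 at 6 h (adjusted p = 0.000484). Over the warm hours 14 of the 17 passed, 7 of them lower at 6 h, where 44.7% of all genes passed. A pair of myb-like genes listed as candidate regulators, LOC_Os06g24070 and LOC_Os01g13740, fell over the warm hours by 2.40 and 1.81 at 6 h in log2 terms. Both passed the F test, as did 44.7% of all genes. The first was higher at 2 h of heat, at 1.21 ± 0.28 (adjusted p = 0.00557), and the other did not pass, beside 3.63% of all genes that were higher. Against cold leaves at 2 h the first was also higher, at 1.67 ± 0.28 (adjusted p = 7.66e-05). The other did not pass there, beside 6.73% of all genes that were higher.

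Across the 10 group means, the genes outside the set most like the mean profile of the 16 antenna genes were ranked by Pearson's r, as a description with no test. The first was LOC_Os07g04840, annotated as PsbP, a further lumenal protein of the oxygen evolving complex, at r = 0.951. It was followed by 3 genes annotated as expressed proteins, LOC_Os05g48630 at 0.934, LOC_Os09g07630 at 0.916 and LOC_Os01g09270 at 0.904, and by the pentatricopeptide gene LOC_Os02g46980 at 0.890. Among the 95 themselves, the photosystem I genes of subunits II and IV A reached 0.967 and 0.964, above each antenna gene, the highest of which, LOC_Os07g38960, is part of the profile and reached 0.935. The antenna genes LOC_Os04g59440 and LOC_Os09g26810 lay below 0, at -0.243 and -0.391, although both are part of the profile. The points share libraries and depth, and 10 group means are few.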

How the data were processed

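Total RNA depleted of ribosomal RNA was sequenced from 40 rice leaf libraries, 4 in each of 10 groups. The authors deposited 1 table of log2 values for 19308 genes. It holds the log2 of the read count plus 0.5 scaled to a library size, the form that the voom step of limma gives. That size differs from the library's total of assigned reads. The submitters' processing notes name genome build IRGSP-1.0 and, in alphabetical order, bcl2fastq, bedtools, edgeR 3.4.2, FastQC 0.11.2, featureCounts 1.5.0-p1, limma 3.20.1, SAMtools 1.1-26 and Subread 1.5.0-p1. Coordinates and product names are those of the table. The scaling of libraries, the strand setting and any filter on low counts were not given in the sources used here. Strand affects genes that overlap an antisense gene.

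The offset of 0.5 reads let the reads behind each value be recovered, and 100% of values came out whole within 0.001. A floor of 3 reads is 0.293 to 2.06 CPM, depending on the library. It covers counting error only, because PCR copies of 1 molecule were not told apart by molecular identifiers. Group tests ran in R 4.3.3 with limma 3.58.1, in 1 model of the 10 groups with an intensity trend and robust empirical Bayes, two-sided, with Benjamini-Hochberg adjustment over all 19308 genes of a comparison. The script was tested on simulated data first. Summaries and figures used Python 3.11.15 (matplotlib 3.10.9, numpy 2.4.6, pandas 2.3.3).

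The members, the roles read from product names and the pathway lists were chosen with earlier results of these data known. Picked for naming were the 3 genes of each role with the highest mean log2 value and up to 10 called genes with the smallest p in each comparison. In each role against warm, the gene of largest absolute change among those with a mean log2 value of at least 2 was picked too. From each pathway or marker list the 2 called genes with the smallest p in each comparison were picked. Some of the picked genes are not printed above. Of the genes outside the set, the 5 most like the antenna profile are named. Genes named besides these were chosen after their values were seen. Alternatives were lane as a term, median shift, an offset of 1 CPM, a filter at a mean log2 of 1, no trend or robust step, only the groups compared, quantile normalization, voom weights, a replicate block and leaving out single libraries. Leaving out the pair of libraries that stand apart, and testing heat changes between hours, were chosen after seeing the data. No sequence and no genome were used here.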

Additional observations from a re-analysis of the deposited data

Results flagged for a closer look

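For 20 genes of the set, the libraries within each group were compared for a highest or lowest value far from its 3 mates. Of 200 groups of 4, 12 held such a value, where chance gives about 1 in 20.

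Warm 0 h replicate 1 gave 3 of the 12, each the lowest of its group. The enhancer protein 1 gene LOC_Os01g31690 read 4885 CPM there and 8104 to 8776 CPM in its mates. The antenna gene LOC_Os04g38410 read 729 CPM against 2130.1 to 2530.2 CPM. The antenna gene LOC_Os07g37240 read 2275 CPM against 5161 to 6032 CPM. This library is 1 of the pair that stands apart.

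Warm 0 h replicate 2 was the highest for LOC_Os09g26810, at 4.69 CPM against 1.49 to 1.73 CPM, and for LOC_Os02g36850, at 1.90 CPM against 0.573 to 0.583 CPM, which is near the floor of 3 reads. The 5 kDa protein gene LOC_Os02g37060 was lowest in warm 2 h replicate 1, at 63.9 CPM against 212 to 270.2 CPM.

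Of the chloroplast-type loci, LOC_Os10g21250 was lowest in warm 0 h replicate 4, at 69.6 CPM against 113 to 123 CPM, and in cold 6 h replicate 1, at 46.5 CPM against 73.3 to 78.9 CPM. LOC_Os01g58049 was lowest in hot 2 h replicate 4, at 68.4 CPM against 100.4 to 105 CPM, and highest in cold 2 h replicate 4, at 146 CPM against 100.7 to 107 CPM. The plastocyanin-like domain gene LOC_Os02g48820 was lowest in hot 6 h replicate 4, at 0.681 CPM against 0.815 to 0.846 CPM, and highest in hot 24 h replicate 4, at 3.01 CPM against 1.78 to 1.92 CPM. The value in hot 6 h replicate 4 is near the floor, as 3 reads stand for 0.584 CPM there.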

How the results depend on the processing

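The numbers of the 95 genes that passed between temperatures moved with the processing, whereas the 41 over the warm hours ran from 32 to 41 over the alternatives. In hot against warm leaves at 2 h, 1 gene passed. The count was 3 with an offset of 1 CPM and 3 with voom weights, 2 with the filter at a mean log2 of 1, 6 with quantile normalization, 5 with only the groups compared and 5 without the 2 libraries that stand apart. In hot against warm leaves at 6 h, 3 genes passed. The count was 6 with the offset of 1 CPM, 9 with quantile normalization, 1 with a lane term, 7 with voom weights, 11 without the 2 libraries and 17 with only the groups compared. In hot against cold leaves at 2 h the 4 became 9 with quantile normalization, 9 with only the groups compared and 7 without the 2 libraries, and at 6 h the 11 became 23, 33 and 22 under the same settings. Without single libraries the counts ran from 0 to 2 at 2 h, 0 to 5 at 6 h and 0 to 0 at 24 h in hot against warm leaves, and from 3 to 6, 2 to 10 and 0 to 2 at these hours in hot against cold leaves. They were 0 to 0 at each hour in cold against warm leaves, and 32 to 40 over the warm hours. The totals over all genes also moved with quantile normalization, with only the groups compared and without the 2 libraries, given here in this order. In hot against warm leaves 1584 became 1919, 2639 and 2705 at 2 h, and 1333 became 1675, 2793 and 2110 at 6 h. In hot against cold leaves 2907 became 2945, 3359 and 4123 at 2 h, and 1599 became 1940, 4365 and 2384 at 6 h. The cause of these shifts was not tested.

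Replicate numbers were not taken to pair the libraries: in none of the 9 comparisons between temperatures did all 4 same-numbered pairs correlate above 0.1 in their deviations from the group means. Of the 6 pairs of warm hours they did so in 1, 2 h and 24 h, where r ran from 0.24 to 0.35, and over the other 5 pairs of hours r ran from -0.19 to 0.36. With a replicate block, 3 genes passed in hot against warm leaves at 2 h and 4 at 6 h, 4 and 11 in hot against cold leaves at these hours, 0 in each of the other 5 comparisons between temperatures, and 41 over the warm hours.

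Of the values of the genes of the set picked for naming, printed above or not, 17 changed sign, and each had not passed in either setting. The plastocyanin gene LOC_Os06g01210, whose changes lie near 0, gave 13 of them. Without single libraries it ran from -0.27 to 0.093 at 2 h and from -0.66 to 0.28 at 24 h in hot against warm leaves, and from -0.049 to 0.13 at 2 h and from -0.19 to 0.16 at 6 h in cold against warm leaves. With quantile normalization it came to 0.019 at 2 h of heat, and to 0.014 at 6 h and 0.0040 at 24 h of cold. With a lane term it came to 0.26 at 24 h of heat and 0.31 at 6 h of cold. LOC_Os06g11310 came to 0.18 at 6 h of heat with a lane term. Without single libraries, LOC_Os01g56680 ran from -0.93 to 0.0095 at 24 h of heat, and at 2 h of cold LOC_Os07g05360 ran from -1.20 to 0.39 and LOC_Os09g26810 from -0.83 to 0.15. Of the other values of these picked genes, 1234 kept direction and side of the threshold, 74 lost a call and 14 gained one. The medians by role kept their direction in 162 of 162 recomputed values.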
